A study of Mus musculus with 6 samples.

Results

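The genes described here make up the core of the actin cytoskeleton: both cytoplasmic actins, the tropomyosins and calponins that coat filaments, the factors that nucleate, elongate, branch, cap, sever, crosslink and move them, and the proteins that tie them to adhesions and the membrane. A list of 49 symbols was matched to the annotation of the array, and where a gene had several probe sets the brightest on average across all 6 arrays stood for it. Of the 49, 46 had a probe set assigned to that gene alone, among 18193 such genes on the array. Arpc3 and Actr2 had none, and both Arpc1b probe sets carried a further gene symbol, so these 3 subunits of the Arp2/3 complex are not analysed here. The 3 control probe sets for beta-actin that the manufacturer places on the array were read as well. The mean level chose the probe set, and the list was drawn up with earlier results of these data known, so levels and counts over the list are descriptions.

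LT-HSCs, the long-term stem cells of the bone marrow that maintain blood formation, were the cells measured, sorted by the surface phenotype Lin-Sca1+CD150+CD48-. The double knockout (dKO) mice carried MxCre and floxed alleles of c-myc and N-myc, the genes Myc and Mycn, and control mice carried both floxed genes without the recombinase. The Mx promoter answers to interferon and is active in many interferon-responsive cells, not in stem cells alone. Mice of both groups were 8 weeks old, on a mixed background, and had received 2 daily doses of pI-pC, a synthetic double-stranded RNA that induces interferon, the last of them 3 days before they were killed. There were 3 arrays a group, every one from its own pool, which joined 3 mice for dKO and 2 for control. The comparison addresses how stem cells that have just lost both Myc genes differ from those that keep them.

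Actin exists as monomers and as polar filaments that grow at the barbed end. Profilin and thymosins manage the monomers, the Arp2/3 complex, formins and Ena/VASP proteins start and extend filaments, capping proteins stop growth, cofilin and gelsolin sever, and filamins, actinins and plastins crosslink. Non-muscle myosin II pulls on the filaments, and vinculin, talin and ezrin-family proteins anchor them to integrins and the plasma membrane. In blood stem cells this network is known for its part in adhesion to the niche, migration and cell shape.

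Both targeted genes were lower in dKO arrays. Myc had 7.28, 7.77 and 7.24 in dKO arrays, against 10.40, 10.57 and 10.12 in control arrays (log2 RMA values, the scale of all levels below). Of the 3 Mycn probe sets, the most changed had 3.40, 3.81 and 3.17 in dKO arrays, within the span of the array's negative controls (2.13 to 3.92), against 10.80, 10.87 and 10.76 in control arrays. Another fell by 1.61, and the third, dim in both groups, did not pass. Array medians lay between 5.90 and 5.97, and no array duplicated another. Of the 6 measured LT-HSC markers, Slamf1, Procr and Mecom did not pass the test while Kit, Hlf and Tek fell in dKO cells, and Cd48, the antigen that the sort excludes, was higher there, at 9.55, 9.66 and 9.03 in dKO arrays, against 8.34, 8.01 and 8.39 in control arrays.

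Actin cytoskeleton transcripts were broadly higher in dKO stem cells. Of the 46 measured genes, 28 rose and 0 fell past an adjusted p of 0.05 in limma's moderated test across 45037 probe sets, and 18 did not pass. The same rule called 4.49% of all genes higher and 3.56% lower, 8.05% in all, and 6.99% of all probe sets. The 28 changes ran from 0.57 to 3.66 on the log2 scale, that is 1.49-fold to 12.7-fold, and 13 were at least 2-fold. Every dKO array lay above every control array for 39 of the 46, against 15.8% of all genes, and the other 7 overlapped. No gene of the list had every dKO array below every control array, against 14.2% of all genes (30% in either direction). The median change was 0.76, beside 0.01 over all genes, with 44 values above 0 and 2 below.

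Many of these genes are bright, so the counts were also read by level. Among members with a mean level of 10 or more, 15 of 23 rose (median 0.67), where 11.7% of the 1236 genes at that level were called higher (median 0.07). Among the dimmer members 13 of 23 rose (median 0.77), where 4.49% of all genes, bright ones included, were called higher. Summed on the linear scale and returned to log2, the 46 genes came to 16.72, 16.71 and 16.71 in dKO arrays, against 15.97, 15.97 and 15.92 in control arrays. The pools of each group thus differed little from each other beside the gap between groups.

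**Figure D1:**
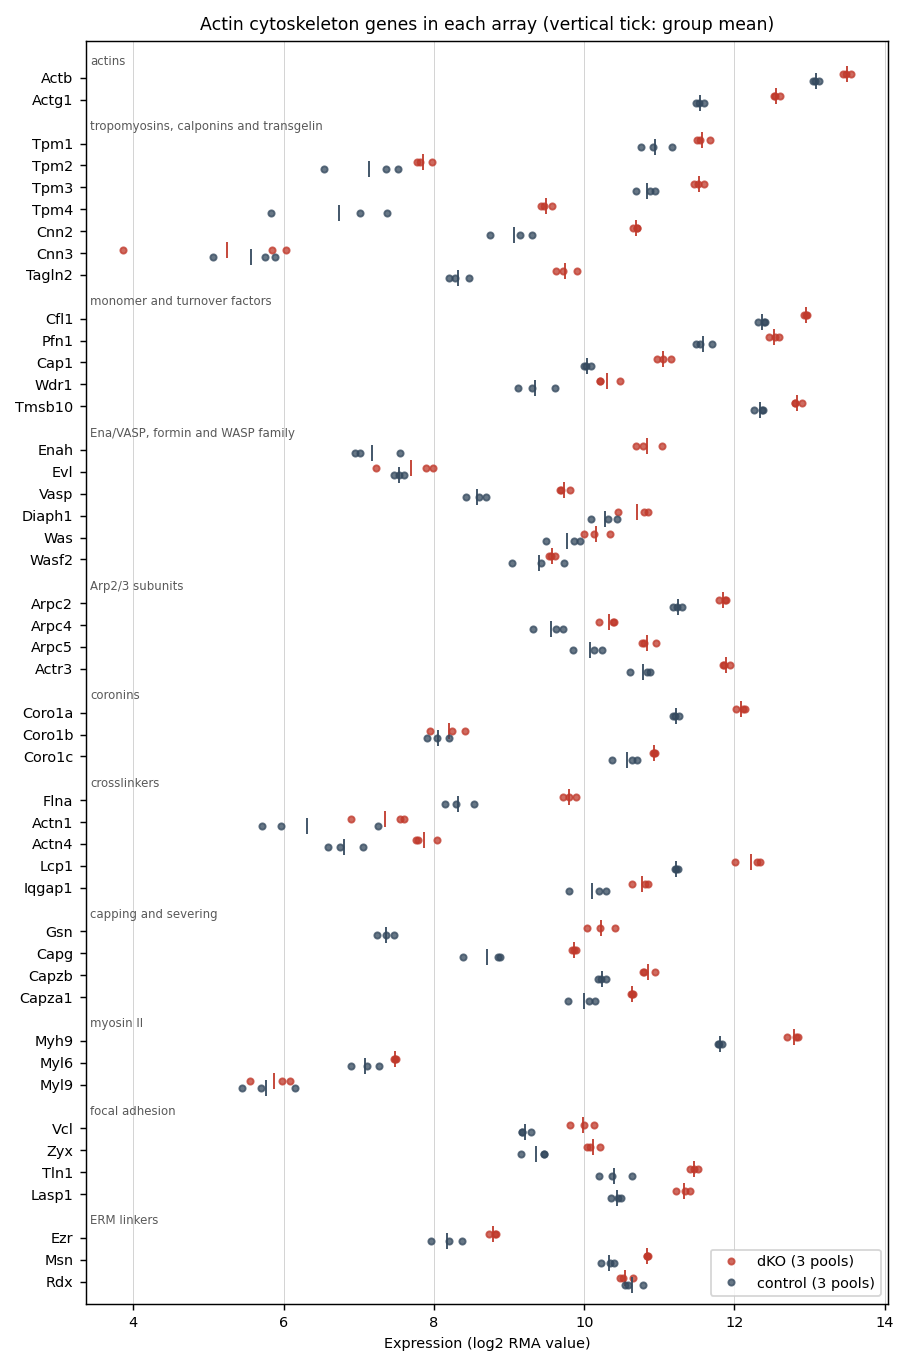
Expression of the 46 actin cytoskeleton genes in each array (horizontal axis, log2 RMA value), grouped by role, with dKO arrays drawn above control arrays for each gene and a vertical tick at each group mean. The dKO points lie to the right of all control points for 39 genes, and the widest gap is that of Enah.

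**Figure D2:**
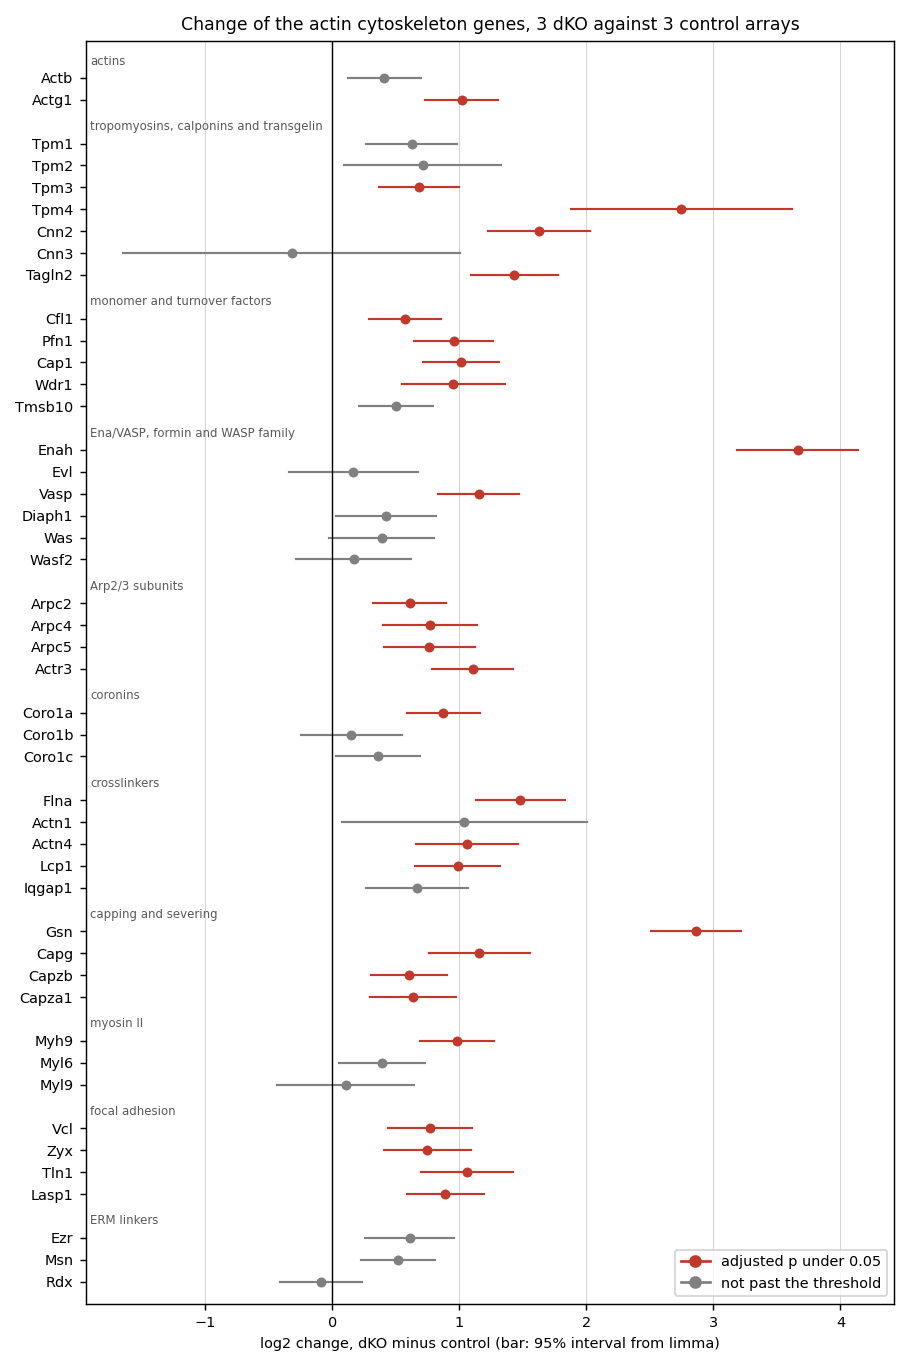
Change of each gene (horizontal axis, log2, dKO minus control) with its 95% interval from limma. Filled red marks the 28 genes that rose past an adjusted p of 0.05, grey the 18 that did not pass, of which Cnn3 and Rdx lie below 0.

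In the promoters of the members, 2 motifs were searched on both strands. The window was the 300 bases from 250 before to 50 after each start (RefSeq, GRCm38.p6). The CArG box is the binding motif of serum response factor (SRF), the factor known for switching on actin and muscle contractile genes, and the E-box CACGTG is bound by Myc with Max. A promoter was found for 46 of the 49 members, all but Actb, Coro1b and Diaph1. A CArG box stood in the promoters of 6 of the 46 (13.0%), beside 1.81% of 27025 genes in the table. The E-box stood in 4 of the 46 (8.70%), beside 8.09% of all genes. The CArG boxes belonged to Actg1, Cnn2, Arpc4 and Vcl, which rose, and to Myl6 and Myl9, which did not pass. The shares by call were nearly equal, at 4 of 28 members that rose (14.3%) and 2 of 15 that did not pass (13.3%). Shown next are the promoters of Actg1, Cnn2 and Vcl, which rose, and of Myl9, which carries the box too but did not pass, each 5′ to 3′ on the gene's strand. Capitals mark the CArG box and, in Actg1, also the E-box.
Actg1: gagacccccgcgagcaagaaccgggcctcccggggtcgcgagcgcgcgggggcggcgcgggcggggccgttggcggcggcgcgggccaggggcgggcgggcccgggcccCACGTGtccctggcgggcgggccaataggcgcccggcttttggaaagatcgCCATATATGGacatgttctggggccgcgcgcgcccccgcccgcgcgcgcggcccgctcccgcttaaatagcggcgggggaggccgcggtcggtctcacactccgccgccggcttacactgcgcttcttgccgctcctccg
Cnn2: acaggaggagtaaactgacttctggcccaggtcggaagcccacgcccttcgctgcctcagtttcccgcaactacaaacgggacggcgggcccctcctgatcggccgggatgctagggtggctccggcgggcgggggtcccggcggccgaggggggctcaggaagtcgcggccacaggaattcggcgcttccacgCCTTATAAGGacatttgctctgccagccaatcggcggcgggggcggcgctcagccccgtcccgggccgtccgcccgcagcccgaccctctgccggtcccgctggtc
Vcl: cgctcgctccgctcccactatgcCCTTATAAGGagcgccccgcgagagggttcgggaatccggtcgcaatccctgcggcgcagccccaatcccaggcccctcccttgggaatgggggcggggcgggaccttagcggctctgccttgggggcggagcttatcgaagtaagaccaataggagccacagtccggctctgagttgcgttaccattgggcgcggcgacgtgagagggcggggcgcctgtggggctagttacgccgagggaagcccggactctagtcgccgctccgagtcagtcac
Myl9: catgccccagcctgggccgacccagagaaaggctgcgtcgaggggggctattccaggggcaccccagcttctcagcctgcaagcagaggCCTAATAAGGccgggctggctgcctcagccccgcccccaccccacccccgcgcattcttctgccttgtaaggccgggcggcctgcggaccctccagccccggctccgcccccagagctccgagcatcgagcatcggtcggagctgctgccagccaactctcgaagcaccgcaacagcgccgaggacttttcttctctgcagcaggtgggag
These windows are chr11:120348446-120348745 on the minus strand for Actg1, chr10:79988350-79988649 on the plus strand for Cnn2, chr14:20929148-20929447 on the plus strand for Vcl and chr2:156775214-156775513 on the plus strand for Myl9. Counted from the start of the gene, the CArG box begins at -90 in Actg1 (CCATATATGG), at -56 in Cnn2 (CCTTATAAGG), at -227 in Vcl (CCTTATAAGG) and at -161 in Myl9 (CCTAATAAGG). In the promoters not shown, the Arpc4 box was CCTAATTTGG and the Myl6 box CCTTATATGG. A match describes letters in these windows and is no evidence of binding. SRF's own transcript did not pass the test (Srf, log2 difference 0.31 ± 0.14 SE, adjusted p = 0.255), with every dKO array above every control array. The part of SRF in the actin results was not tested.

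The actins themselves form the filament. Actg1, gamma-actin, had 12.61, 12.52 and 12.54 in dKO arrays, against 11.49, 11.59 and 11.53 in control arrays. The groups lay far apart relative to their spread, and the gene rose 2.03-fold (log2 change 1.02 ± 0.12 SE, adjusted p = 0.00609). Beta-actin was higher in every dKO array by each of the 5 probe sets that measured it, but the size of the difference and the call depended on the probe set. The brighter of the 2 gene probe sets had 13.55, 13.48 and 13.45 in dKO arrays, against 13.05, 13.07 and 13.13 in control arrays. Its difference did not pass (log2 difference 0.41 ± 0.12 SE, adjusted p = 0.101). The dimmer had 13.35, 13.32 and 13.32 in dKO arrays, against 12.54, 12.56 and 12.53 in control arrays, and rose (log2 change 0.78 ± 0.12 SE, adjusted p = 0.0128). The 3 control probe sets, which as array controls were left out of the fit, had differences of 0.82 at the 5′ end, 0.91 in the middle and 0.85 at the 3′ end. At the 3′ end the values were 13.19, 13.19 and 13.18 in dKO arrays, against 12.34, 12.32 and 12.34 in control arrays. At the 5′ end they were 12.97, 12.99 and 12.97 in dKO arrays, against 12.23, 12.12 and 12.11 in control arrays. At each position no control array reached a dKO array.

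The beta-actin controls also show the state of the RNA. The 3′ minus 5′ difference was 0.21, 0.20 and 0.21 in dKO arrays, against 0.10, 0.20 and 0.23 in control arrays, and the groups overlapped (exact two-sided permutation p = 0.8, where 3 arrays against 3 cannot go below 0.1). For Gapdh, that difference was 2.43, 2.39 and 2.47 in dKO arrays, against 2.12, 2.33 and 2.36 in control arrays (exact p = 0.1, the smallest possible). The dKO arrays thus lay above the control arrays in the Gapdh measure, and its part in the actin results was not tested. Gapdh itself differed by 0.35 at its 3′ control probe set and 0.18 at its 5′ one.

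**Figure D3:**
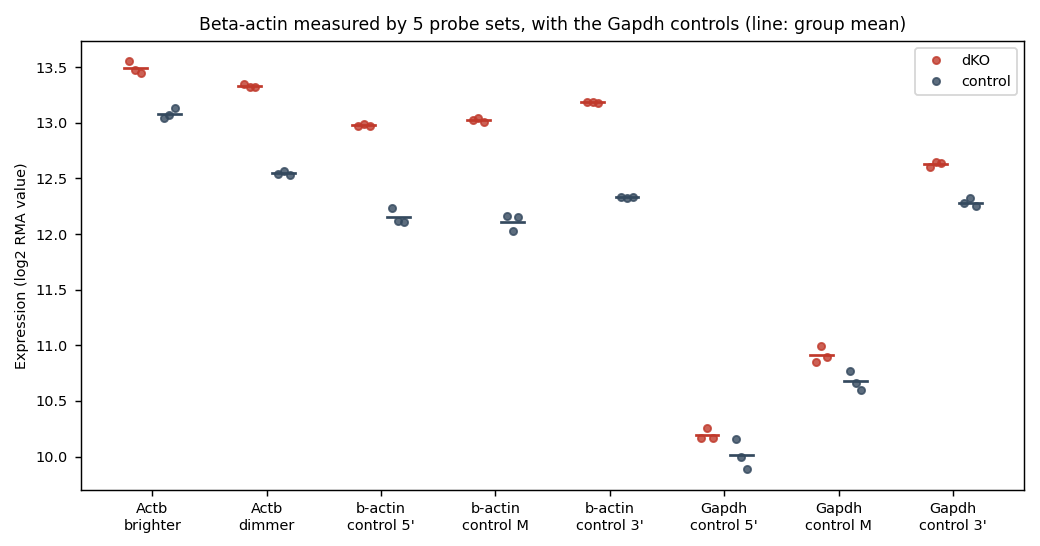
Beta-actin by its 2 gene probe sets and 3 control probe sets, and Gapdh by its 3 control probe sets (vertical axis, log2 RMA value), with dKO arrays left of control arrays and a line at each group mean. All 5 beta-actin probe sets are higher in dKO arrays, by 0.41 for the brightest and by 0.78 to 0.91 for the others.

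Of the proteins that coat and stabilise filaments, 4 of 7 rose. Tpm4, a tropomyosin of non-muscle cells, had 9.46, 9.43 and 9.58 in dKO arrays, against 7.38, 7.02 and 5.83 in control arrays. The dKO pools were tight and the control pools wide, with control replicate 3 lowest, and the rise was 6.72-fold (log2 change 2.75 ± 0.37 SE, adjusted p = 0.00886). Cnn2, a calponin found in blood and smooth muscle cells, had 10.71, 10.71 and 10.65 in dKO arrays, against 9.14, 9.30 and 8.75 in control arrays. It rose 3.08-fold (log2 change 1.62 ± 0.17 SE, adjusted p = 0.00429), with no overlap between groups. Tagln2, transgelin-2, an actin-binding relative of the calponins, had 9.71, 9.90 and 9.63 in dKO arrays, against 8.46, 8.28 and 8.21 in control arrays. Its rise was 2.70-fold (log2 change 1.43 ± 0.14 SE, adjusted p = 0.00387), and 1.66-fold when the gene's 3 probe sets were averaged, 1 of which lay in the negative control range. Tpm3 had 11.51, 11.59 and 11.46 in dKO arrays, against 10.69, 10.88 and 10.95 in control arrays. It rose with no overlap (log2 change 0.68 ± 0.13 SE, adjusted p = 0.0289).

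The remaining genes of the coat did not pass. Tpm1 differed by 0.62 (adjusted p = 0.0581) and Tpm2 by 0.71 (adjusted p = 0.170), each with the dKO arrays above all control arrays. For Tpm2 the control values of 7.52, 7.36 and 6.53 were spread by replicate 3, as those of Tpm4 were. Cnn3 was dim in both groups, at 3.86, 6.03 and 5.85 in dKO arrays, against 5.06, 5.88 and 5.75 in control arrays, and differed by -0.32 (adjusted p = 0.809).

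Factors that turn over monomers and filaments rose in 4 of 5 cases. Cap1, cyclase-associated protein, which recycles monomers, had 10.96, 11.04 and 11.15 in dKO arrays, against 10.09, 10.03 and 10 in control arrays. It rose 2.02-fold (log2 change 1.01 ± 0.13 SE, adjusted p = 0.00706). Profilin 1, Pfn1, which feeds monomers to growing ends, had 12.60, 12.54 and 12.46 in dKO arrays, against 11.70, 11.54 and 11.48 in control arrays. Its rise was 1.94-fold (log2 change 0.95 ± 0.13 SE, adjusted p = 0.00939), and the groups of neither gene overlapped. Wdr1, which helps cofilin take filaments apart, had 10.21, 10.48 and 10.21 in dKO arrays, against 9.31, 9.12 and 9.61 in control arrays. It rose as well (log2 change 0.95 ± 0.17 SE, adjusted p = 0.0219), and its other 2 probe sets rose by 1.36 and 1.31. Cofilin 1, Cfl1, had 12.95, 12.92 and 12.97 in dKO arrays, against 12.40, 12.40 and 12.32 in control arrays. This was the smallest rise to pass in the whole list (log2 change 0.57 ± 0.12 SE, adjusted p = 0.0353), and the dimmer Cfl1 probe set rose by 0.90. Tmsb10, a thymosin that holds monomers, differed by 0.50 and did not pass by its brightest probe set (adjusted p = 0.0603), while 2 of its other probe sets rose by 0.63 each (adjusted p = 0.0297 and 0.0324). Its remaining 2 probe sets differed by 0.03, for the second brightest, and by -0.32, with overlap, and did not pass.

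Among proteins that start or extend filaments, 2 of 6 rose, one of them with the largest change in the list. Enah, the Ena/VASP protein Mena, which keeps barbed ends growing, had 10.69, 11.03 and 10.79 in dKO arrays, against 7.56, 6.94 and 7.02 in control arrays. That is a 12.7-fold rise (log2 change 3.66 ± 0.20 SE, adjusted p = 0.000634) with groups separated by 3 units of log2 or more. Its other 5 probe sets differed by 1.44 to 3.48, and 4 of them passed. Averaged over all 6, the rise was 7.15-fold. Vasp, of the same family, had 9.68, 9.81 and 9.69 in dKO arrays, against 8.70, 8.60 and 8.43 in control arrays. It rose 2.22-fold (log2 change 1.15 ± 0.14 SE, adjusted p = 0.00594). The family's remaining gene, Evl, had 7.22, 7.99 and 7.89 in dKO arrays, against 7.60, 7.47 and 7.54 in control arrays. By this brightest probe set its groups overlapped and it did not pass (log2 difference 0.17 ± 0.22 SE, adjusted p = 0.731). The interval, -0.34 to 0.68, lies below that of Enah (3.19 to 4.13), though the difference between the 2 genes was not tested. The second brightest Evl probe set differed by 0.75 without overlap and did not pass (adjusted p = 0.107). The remaining Evl probe sets differed by -0.16 and -0.19 with overlap and did not pass.

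The formin and the activators of branching did not pass by their brightest probe sets. Diaph1, a formin, differed by 0.42 by its brightest probe set (adjusted p = 0.204), while the other 2 rose by 0.58 and 0.77 (adjusted p = 0.0394 and 0.0140). Was, the blood-cell activator of Arp2/3, differed by 0.39 (adjusted p = 0.262) and the related Wasf2 by 0.17 (adjusted p = 0.691), with 95% intervals of -0.03 to 0.80 and -0.29 to 0.62. A rise of the size seen for Vasp, 1.15, lies outside both.

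The Arp2/3 complex branches new filaments off old ones, and the 4 subunits of the core list that were measured rose. Of the further regulators, the alternative subunits Arpc1a and Arpc5l differed by 0.08 and 0.35 with overlap and did not pass (adjusted p = 0.841 and 0.242), so 4 of 6 measured subunits rose in all. Actr3, the actin-related subunit Arp3, had 11.85, 11.86 and 11.93 in dKO arrays, against 10.61, 10.84 and 10.88 in control arrays. It rose 2.15-fold (log2 change 1.10 ± 0.14 SE, adjusted p = 0.00665), and its other 2 probe sets rose by 1.05 and 1.08. Arpc2 had 11.87, 11.79 and 11.89 in dKO arrays, against 11.19, 11.30 and 11.24 in control arrays (log2 change 0.61 ± 0.12 SE, adjusted p = 0.0312). Arpc4 had 10.39, 10.39 and 10.20 in dKO arrays, against 9.72, 9.32 and 9.63 in control arrays (log2 change 0.77 ± 0.16 SE, adjusted p = 0.0317). Arpc5 had 10.77, 10.79 and 10.96 in dKO arrays, against 10.24, 10.14 and 9.85 in control arrays (log2 change 0.76 ± 0.15 SE, adjusted p = 0.0303). None of these 4 genes showed any overlap between dKO and control arrays.

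Coronins work with Arp2/3 and cofilin at the leading edge. Coro1a, the coronin of blood cells, had 12.02, 12.14 and 12.11 in dKO arrays, against 11.26, 11.21 and 11.18 in control arrays. It rose 1.83-fold (log2 change 0.87 ± 0.12 SE, adjusted p = 0.0101). Coro1c differed by 0.36 with no overlap between groups (adjusted p = 0.196), and Coro1b by 0.15 with overlap (adjusted p = 0.686), so 1 of the 3 listed coronins passed. Outside the core list, Coro2a rose by 1.03, while Coro7 differed by -0.41 with overlap and did not pass (adjusted p = 0.248).

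Crosslinkers turn filaments into networks and bundles, and 3 of 5 rose. Flna, filamin A, which joins filaments at wide angles and links them to membrane receptors, had 9.80, 9.72 and 9.89 in dKO arrays, against 8.29, 8.53 and 8.15 in control arrays. The rise was 2.79-fold (log2 change 1.48 ± 0.15 SE, adjusted p = 0.00387), and the lowest dKO array stood more than 1 log2 unit above the highest control array. Actn4, a non-muscle alpha-actinin, had 8.04, 7.78 and 7.76 in dKO arrays, against 6.75, 7.06 and 6.60 in control arrays. It rose 2.09-fold (log2 change 1.06 ± 0.17 SE, adjusted p = 0.0151). L-plastin, Lcp1, the bundling protein of blood cells, had 12.01, 12.34 and 12.30 in dKO arrays, against 11.25, 11.22 and 11.21 in control arrays. Its control pools were nearly identical and its rise was 1.98-fold (log2 change 0.99 ± 0.14 SE, adjusted p = 0.0109).

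The other 2 crosslinkers did not pass by their brightest probe sets. Actn1 had 7.60, 7.55 and 6.90 in dKO arrays, against 5.97, 5.72 and 7.25 in control arrays. Control replicate 3 lay inside the dKO range (log2 difference 1.04 ± 0.41 SE, adjusted p = 0.199), and the gene passed when that array was left out. Its 2 dimmer probe sets rose by 1.66 and 1.30 (adjusted p = 0.0358 and 0.0170). Iqgap1, a scaffold that binds actin and small GTPases, differed by 0.67 without overlap (adjusted p = 0.0648).

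Of proteins that cap or sever filaments, the 4 in the core list rose. Related genes outside it were mixed. The capping chain Capza2, the twinfilin Twf2 and Svil rose, by 1.10, 1.04 and 0.85. Others did not pass: Scin differed by 0.40, Vil1 by 0.72 (adjusted p = 0.0603), Dstn by -0.03, Cfl2 by -0.07, Tmod1 by -0.26 and Tmod3 by -0.07. Gsn, gelsolin, which severs filaments and caps the new end, had 10.41, 10.21 and 10.04 in dKO arrays, against 7.48, 7.37 and 7.24 in control arrays. It rose 7.27-fold (log2 change 2.86 ± 0.15 SE, adjusted p = 0.000514). Of its 5 other probe sets 4 rose, by 0.83 to 3.07, and the average over all 6 rose 4.13-fold. Capg, a gelsolin relative that caps without severing, had 9.83, 9.89 and 9.87 in dKO arrays, against 8.85, 8.88 and 8.38 in control arrays. It rose 2.23-fold (log2 change 1.16 ± 0.17 SE, adjusted p = 0.0114). The capping protein that closes barbed ends is a dimer, and both of its chains in the core list rose. Capzb had 10.79, 10.95 and 10.80 in dKO arrays, against 10.19, 10.30 and 10.23 in control arrays (log2 change 0.61 ± 0.13 SE, adjusted p = 0.0345). Capza1 had 10.63, 10.63 and 10.65 in dKO arrays, against 10.06, 10.15 and 9.79 in control arrays (log2 change 0.64 ± 0.14 SE, adjusted p = 0.0441).

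Of the myosin II chains in the core list, 1 of 3 rose. Myh9, the heavy chain, had 12.85, 12.70 and 12.81 in dKO arrays, against 11.80, 11.83 and 11.78 in control arrays. It rose 1.98-fold (log2 change 0.98 ± 0.12 SE, adjusted p = 0.00708), and its other 4 probe sets rose by 0.83 to 1.38. The light chains of the core list did not pass. Myl6, with a single probe set, differed by 0.39 without overlap (adjusted p = 0.167). Myl9, the regulatory chain of smooth muscle and platelets, had 6.09, 5.97 and 5.55 in dKO arrays, against 5.70, 5.44 and 6.15 in control arrays. Its groups overlapped (log2 difference 0.11 ± 0.23 SE, adjusted p = 0.847), and its 95% interval ran from -0.43 to 0.65. Outside the core list, the non-muscle regulatory light chain Myl12a rose by 1.09 ± 0.14 SE (adjusted p = 0.00732), while Myl12b (0.43), Myh10 (0.31) and Myh14 (-0.15) did not pass.

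The 4 focal adhesion genes of the core list rose. Adhesion genes outside it were mixed: Parvb, Parvg and Ilk rose, and Pxn (0.14), Tln2 (0.27) and Fermt3 (0.24) overlapped between groups and did not pass. Talin 1, Tln1, which switches integrins on and ties them to actin, had 11.52, 11.46 and 11.41 in dKO arrays, against 10.64, 10.37 and 10.19 in control arrays. It rose 2.08-fold (log2 change 1.06 ± 0.15 SE, adjusted p = 0.0114). Lasp1, a LIM protein of adhesions, had 11.35, 11.22 and 11.41 in dKO arrays, against 10.49, 10.45 and 10.36 in control arrays. It rose 1.85-fold (log2 change 0.89 ± 0.13 SE, adjusted p = 0.0112), as did 6 of its 8 other probe sets. Vinculin and zyxin, which reinforce adhesions under load, rose as well. Vcl had 10.13, 9.81 and 9.998 in dKO arrays, against 9.18, 9.17 and 9.29 in control arrays (log2 change 0.77 ± 0.14 SE, adjusted p = 0.0232). Zyx had 10.22, 10.04 and 10.08 in dKO arrays, against 9.47, 9.16 and 9.46 in control arrays (log2 change 0.75 ± 0.15 SE, adjusted p = 0.0283).

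The ezrin, radixin and moesin proteins fasten actin to the plasma membrane, and 0 of 3 passed by limma, although Ezr and Msn had unadjusted p values of 0.00427 and 0.00407. Msn, moesin, had 10.84, 10.83 and 10.85 in dKO arrays, against 10.23, 10.35 and 10.40 in control arrays. The groups did not overlap (log2 difference 0.52 ± 0.12 SE, adjusted p = 0.0549), and the call was gained with each array centred on its median (adjusted p = 0.0376). Ezr, ezrin, differed by 0.61, also without overlap (adjusted p = 0.0564). Rdx, radixin, had 10.65, 10.51 and 10.48 in dKO arrays, against 10.59, 10.54 and 10.78 in control arrays. It differed by -0.09 (adjusted p = 0.775), with a 95% interval of -0.41 to 0.23. The interval of Msn, 0.22 to 0.81, overlaps it and that of Ezr, 0.26 to 0.96, does not. The differences between these genes were not tested. The other Rdx probe sets differed by -0.01 with overlap and by 0.18 without, and did not pass.

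The probe sets that were not chosen measure the same genes on the same arrays, so they are no independent replication. The 46 genes had 132 probe sets in all. Of the 86 others 41 rose, 0 fell and 45 did not pass, beside 3.57% of all probe sets higher and 3.41% lower. Changes were above 0 in 71 of the 86. In both groups, 7 of the 86 lay in the negative control range. Of the 28 genes that rose, 21 had another probe set, and in 17 of these at least 1 other rose too. Actb, Tmsb10, Diaph1 and Actn1 passed only by a probe set other than the brightest, which makes 32 genes with any probe set that rose. Probe sets whose names end in _s_at or _x_at may share probes with other transcripts. They represented 7 of the 46 genes, Gsn and Actg1 among them, and without them 23 of 39 rose.

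Each group has 3 arrays, and omitting any of them leaves fewer residual degrees of freedom. A call lost in such a fit therefore does not by itself point to the omitted array. When each array was left out in turn, 17 to 20 of the 46 genes rose and 0 fell. Of the 28, 17 passed in all 6 of these fits, among them Enah, Gsn, Tpm4, Cnn2, Flna, Tagln2, Vasp, Actr3, Myh9 and Actg1, and 8 passed in none: Tpm3, Cfl1, Arpc2, Arpc4, Arpc5, Capzb, Capza1 and Zyx (adjusted p from 0.0524 to 0.118). Wdr1 kept its call only when control replicate 3 was the array omitted (otherwise up to 0.0739), and Vcl only when dKO replicate 2 was (otherwise up to 0.0769). Actn4 lost its call without dKO replicate 1 or control replicate 1 (up to 0.0557).

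Other genes of the pathway that passed were mostly higher. Of 58 further actin regulators measured, 12 rose and 0 fell (median 0.23), with 16 below 0. The dKO arrays all lay below the control arrays for 3 of the 58, the plastin Pls3 (-0.99, unadjusted p = 0.0215), the adducin Add3 (-0.42, unadjusted p = 0.0150) and the spectrin Sptbn1 (-0.24), which did not pass after adjustment. The 8 largest rises were those of the parvin Parvb (log2 change 1.12 ± 0.16 SE), the capping chain Capza2 (1.10 ± 0.14), the myosin light chain Myl12a (1.09 ± 0.14), the twinfilin Twf2 (1.04 ± 0.23), the coronin Coro2a (1.03 ± 0.22), the thymosin Tmsb4x (1.03 ± 0.13), the formin Fmnl1 (1.02 ± 0.22) and the integrin-linked kinase Ilk (0.93 ± 0.15), with adjusted p up to 0.0441. Tmsb4x, the monomer-holding thymosin of blood cells, had 13.41, 13.21 and 13.18 in dKO arrays, against 12.31, 12.23 and 12.20 in control arrays. All 3 dKO arrays lay above the control arrays, as for the chosen thymosin Tmsb10.

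Of 14 SRF-pathway genes, which include muscle actins, 3 rose and 0 fell (median 0.35): the immediate early genes Egr1 (log2 change 1.63 ± 0.23 SE) and Ier2 (0.61 ± 0.14), and Fhl2 (0.73 ± 0.17). The muscle isoforms Acta1, Acta2 and Actc1 differed by 0.21, 0.39 and 0.12 and did not pass. Of 18 tubulin and intermediate filament genes, 4 rose and 1 fell (median 0.32). The share of genes higher was 60.9% among the core genes, 20.7% among the further regulators, 21.4% in the SRF list and 22.2% among tubulins and intermediate filaments, beside the 4.49% of all genes. The core genes were chosen with these data in view, so the order of these shares was not tested.

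**Figure D4:**
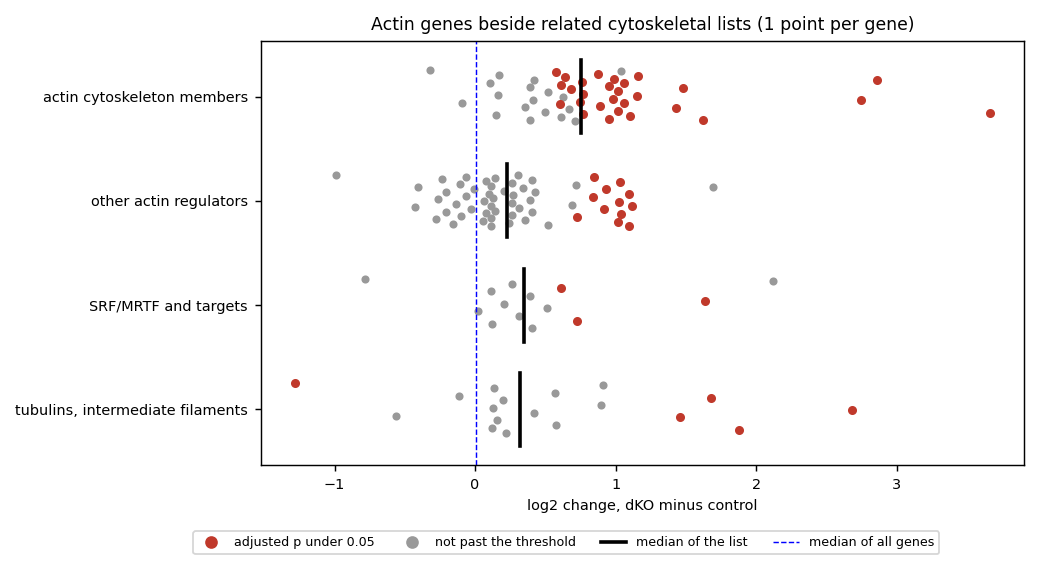
Change of each gene (horizontal axis, log2, dKO minus control) in the core actin genes and in 3 related lists, 1 point per gene, red where the adjusted p was under 0.05, with a black line at each list's median and a dashed line at the median of all genes. The core genes have a median of 0.76 and the other lists medians of 0.23 to 0.35.

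Actin genes are also high in platelets, smooth muscle and migrating blood cells, so markers of other cell types were read beside them. In sorted pools a larger share of cells of a type and more RNA per cell cannot be told apart. Of 13 megakaryocyte and platelet markers, 5 rose (Ppbp, F2rl2, Itgb3, Itga2b and Pf4) and 1 fell (Vwf). Their summed level was 13.26 to 13.88 in dKO arrays, against 12.19 to 12.40 in control arrays, and the part of these markers in the actin results was not tested. That sum is weighted to bright markers such as Pf4 and Ppbp. Marker by marker the median was 0.20, with 8 above 0 and 5 below. The group means of Gp6 lay among the negative controls. Other platelet glycoproteins did not pass: Gp9 differed by 0.20, Gp5 by 0.54 and Gp1bb by -0.23. Treml1 differed by -0.95, with every dKO array below every control array (adjusted p = 0.0878).

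The stromal, smooth muscle and endothelial list had 1 of 10 markers higher, Pecam1, which blood cells also carry. Its summed level was 10.65 to 12.20 in dKO arrays, against 9.78 to 10.11 in control arrays, and the highest value came from dKO replicate 3, where Col1a1 reached 11.03, beside 8.33 and 8.20 in the other dKO arrays. In dKO replicates 1 and 2 the list summed to 10.74 and 10.65, also above every control array. With dKO replicate 3 left out, 18 of the 46 actin genes rose, in a fit that still held this difference in the list. The part of this list in the result was not tested. The smooth muscle markers Acta2, Tagln, Myh11, Des and Cnn1 did not pass, though Tagln was higher in every dKO array (0.41, adjusted p = 0.179). Of the 10 markers, 4 had every dKO array above every control array and 0 the reverse, against 15.8% and 14.2% of all genes.

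Further blood cell types were read in the same way. Of 9 macrophage markers, 2 rose (Mrc1 and C1qb), with a summed level of 8.71 to 9.09 in dKO arrays, against 8.25 to 8.51 in control arrays. Of 7 T and NK cell markers, 1 rose (Klrk1), at 8.08 to 8.35 in dKO arrays, against 7.90 to 7.95 in control arrays, with the group means of Ncr1 among the negative controls. Of 5 B cell markers 0 passed by limma, and 0 had an unadjusted p under 0.05, at 8.14 to 8.63 in dKO arrays, against 7.93 to 8.23 in control arrays, and Ms4a1 was among the negative controls. Of 11 neutrophil markers 0 passed by limma (2, Camp and Ngp, had an unadjusted p under 0.05, both lower), at 8.64 to 10.43 in dKO arrays, against 9.89 to 11.49 in control arrays, with Lcn2 and Mmp8 among the negative controls. Of 4 erythroid markers 1 fell (Klf1), at 7.25 to 7.92 in dKO arrays, against 8.18 to 8.75 in control arrays, and Hba-a1 was among the negative controls. Within the macrophage list Adgre1 lay lower in every dKO array (-0.46, adjusted p = 0.0897), and Csf1r (-0.13), Marco (0.00) and Cd68 (0.37) overlapped between groups. Within the T and NK list Cd4 lay lower in every dKO array (-0.18, adjusted p = 0.503), and 6 of the 7 markers did not pass. The summed levels of both lists were higher in dKO arrays, and their part in the result was not tested.

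**Figure D5:**
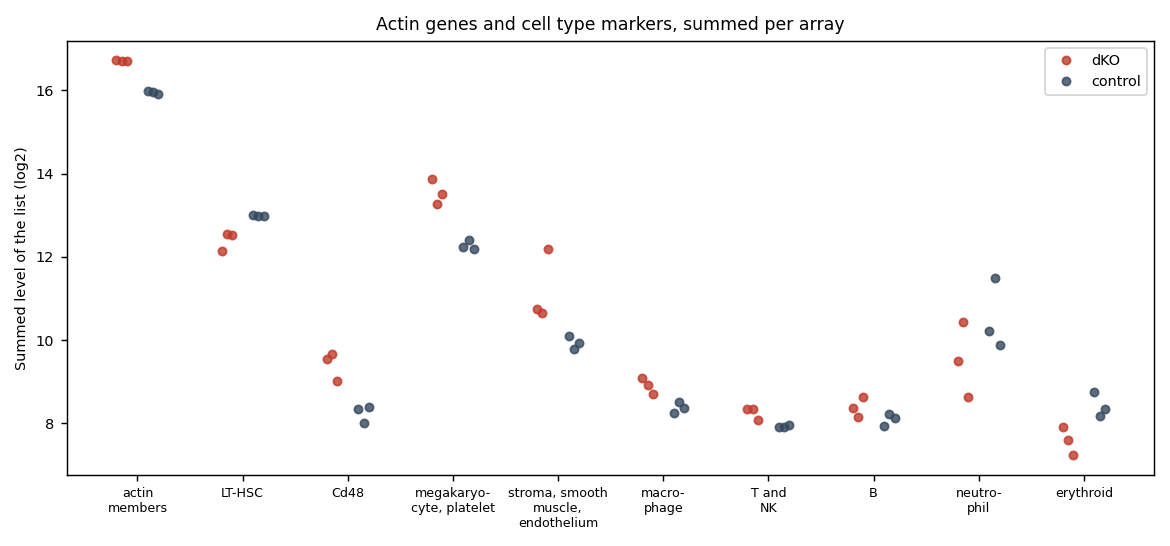
Summed level of the 46 actin genes and of cell type marker lists in each array (vertical axis, log2 of the summed linear values), with dKO arrays left of control arrays. The megakaryocyte and platelet list lies at 13.26 to 13.88 in dKO arrays, against 12.19 to 12.40 in control arrays, and the stromal list is highest in dKO replicate 3.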

How the data were processed

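Microarray expression was measured in 6 pools of sorted cells. The deposited values are RMA values on a log2 scale per probe set: per the submitters' processing notes RMA was used, with no version or settings given, and the log2 scale was read from the values, which run from 1.49 to 13.85. Per the labels' protocols, the RNA came from a Trizol preparation and went through 2 rounds of amplification. RMA scales the arrays to each other, so all changes are relative. Groups and replicate numbers came from the sample titles, and no batch is named in the sources used here. Arrays are separate pools, and their number limits the precision.

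The 45037 non-control probe sets were fitted with limma 3.58.1 in R 4.3.3 (lmFit and eBayes, dKO minus control, 4 residual and 3.19 prior degrees of freedom), with Benjamini-Hochberg adjustment over all of them and a threshold of 0.05. Adjusted p values in the text are limma's, intervals are 95%, and SE is from limma. The procedure was tested on simulated data. The platform annotation gave a single symbol for 34945 of the 45037, more than 1 for 932 and no symbol for 9160. Of the first, 34741 were matched to the RefSeq gene table, with 0 symbols changed. The members and all lists were chosen with earlier results of these data known. Values in every array are given for members past the threshold, Actb, Flna and the member of each role with the smallest p. Further members were described after their values were seen. One further list of signalling genes is not reported here.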

Additional observations from a re-analysis of the deposited data

How the results depend on the processing

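The count of core actin genes that rose, 28 of 46, was 27 after quantile normalization, 32 with each array centred on its median (which shifts all changes by 0.06), 33 among probe sets above the median level, 34 with a trended robust prior, 29 with array weights and 32 with all probe sets of a gene averaged. None fell by limma in any of the 13 alternatives or with all arrays, where 0 also had an unadjusted p under 0.05 in that direction. With 1 array left out, 17 to 20 rose, and 1338 to 1674 probe sets passed, against 3146 with all arrays, in fits with fewer samples. The median change was 0.69 to 0.82 over the alternatives. No named gene changed sign. The beta-actin control 3′ minus 5′ difference between groups, 0.03, was -0.00884 without control replicate 1, and reached 0.0548 without control replicate 3. The cause was not tested. Averaging probe sets lowered Enah, Gsn and Tagln2 as given above.

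Both groups number their pools alike, and no label ties equal numbers together. Deviations of same-numbered arrays correlated at -0.02, 0.00 and 0.01, and 0 of 3 dKO arrays correlated best with their own number. With the replicate block, which leaves fewer residual degrees of freedom than the main fit, 17 core genes rose and 1530 probe sets passed. The calls lost were those of Tpm3, Cfl1, Wdr1, Arpc2, Arpc4, Arpc5, Capzb, Capza1, Vcl, Zyx and Lasp1, with adjusted p of up to 0.106.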

Other observations

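The tubulin and intermediate filament genes, the other filament systems of the cell, also held single large changes. Tuba8, an alpha-tubulin, had 9.94, 9.57 and 9.84 in dKO arrays, against 7.21, 7.52 and 6.58 in control arrays (log2 change 2.68 ± 0.25 SE, adjusted p = 0.00313). Tubb6, a beta-tubulin, rose by 1.88 ± 0.37, Tubb2a by 1.68 ± 0.23 and Tuba1a by 1.46 ± 0.20 (adjusted p up to 0.0286). Each had its dKO arrays above all control arrays. Krt18, a keratin, moved the other way, with 7.79, 8.50 and 8.27 in dKO arrays, against 9.29, 9.60 and 9.52 in control arrays (log2 change -1.28 ± 0.21 SE, adjusted p = 0.0159). The remaining 13 of 18 genes did not pass.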
